A study of Mus musculus with 8 samples.

Results

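The 10 genes described here, Tbx21, Eomes, Bhlhe40, Ifng, Ccl5, Gzmb, Gzma, Prf1, Nkg7 and Plac8, are genes of type 1 effector and cytotoxic lymphocytes. They were taken by symbol from a table of 23156 genes, and all 10 were found. The table gives ribosome footprint levels in naive CD4+ T cells of Mettl3 knockout (KO) and wild-type (WT) mice on the C57BL/6 background, with 2 footprint libraries per genotype. The genes were chosen with the KO and WT values known, so their differences between genotypes are given as a description, without a test.

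Ribosome profiling sequences the stretches of mRNA that ribosomes shield from nuclease, and a footprint level follows both the amount of an mRNA and how densely ribosomes occupy it. KO and WT cells alike were given cycloheximide, an arrester of elongating ribosomes, at 0.1 mg/ml for 1 min. METTL3 is the enzyme that places the m6A mark on mRNA. The labels name the knockout but not the way in which the gene was deleted, nor the cells in which it was deleted, and they leave unstated whether the duplicates are of separate mice. The input RNA libraries, 2 per genotype, were not analysed here, so a footprint difference cannot be divided into mRNA amount and translation.

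T-bet, the product of Tbx21, is the transcription factor that directs helper T cells to the type 1 programme and switches on Ifng, while its relative Eomes does similar work in CD8 T cells and natural killer (NK) cells. Interferon gamma, the product of Ifng, arms phagocytes and induces a broad set of genes in the cells it reaches. Cytotoxic lymphocytes kill by releasing granules in which perforin opens the target membrane to granzymes. A naive CD4+ T cell makes little of any of these proteins, and NK cells make most of them.

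Because T-bet and Eomes bind T-box elements, the promoters of the genes were searched for the T-box element AGGTGTGA and its core AGGTGT on both strands, in windows from 250 bases before to 50 bases after the start site (RefSeq, GRCm38.p6). Of the 10 genes, 8 had a window, and Plac8 had 2. Bhlhe40 and Ccl5 were not matched. The stretches before the start site are shown for the 4 genes that held the core, 5′ to 3′ on the strand of the gene, with the longest match in capitals. In Gzma the match lies on the opposite strand and reads as its reverse complement.
Nkg7, chr7:43436888-43437137, plus strand: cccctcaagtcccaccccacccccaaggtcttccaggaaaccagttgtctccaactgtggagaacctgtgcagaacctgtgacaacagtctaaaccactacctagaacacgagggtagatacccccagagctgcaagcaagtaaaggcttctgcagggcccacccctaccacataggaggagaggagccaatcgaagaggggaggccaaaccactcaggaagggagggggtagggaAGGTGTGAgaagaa
Plac8, chr5:100572206-100572455, minus strand: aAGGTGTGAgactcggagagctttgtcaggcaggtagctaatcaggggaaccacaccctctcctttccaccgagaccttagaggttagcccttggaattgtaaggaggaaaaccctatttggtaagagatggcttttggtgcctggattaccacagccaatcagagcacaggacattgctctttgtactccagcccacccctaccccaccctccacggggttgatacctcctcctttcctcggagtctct
Prf1, chr10:61297586-61297835, plus strand: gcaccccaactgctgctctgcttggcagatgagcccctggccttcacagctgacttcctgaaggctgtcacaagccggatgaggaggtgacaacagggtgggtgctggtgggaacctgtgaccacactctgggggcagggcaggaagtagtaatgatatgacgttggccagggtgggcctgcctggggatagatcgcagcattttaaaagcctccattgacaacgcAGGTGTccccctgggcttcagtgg
Gzma, chr13:113100982-113101231, minus strand: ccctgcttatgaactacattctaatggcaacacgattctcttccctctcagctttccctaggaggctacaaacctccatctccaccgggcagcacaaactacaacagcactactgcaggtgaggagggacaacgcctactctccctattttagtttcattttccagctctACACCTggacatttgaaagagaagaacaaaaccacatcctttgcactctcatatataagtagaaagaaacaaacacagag

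The 8-letter element AGGTGTGA stood in the windows of Nkg7 and Plac8, 2 of the 9 windows, against 1.28% of all 32851 windows. In Nkg7 it began 14 bases before the RefSeq start, and the GENCODE gene model begins further upstream and includes it. The core AGGTGT stood in 4 of the 9 windows and in 13.7% of all windows. TGTGGT, the core bound by RUNX factors, stood in the windows of 5 genes, Plac8, Nkg7, Prf1, Gzma and Gzmb, and in 16.8% of all windows. The STAT element TTCNNNGAA stood in those of Nkg7, Ifng and Gzmb, and in 8.3% of all windows. CACGTG, the element bound by BHLHE40, was found in 0 of the 9 windows and in 7.15% of all windows. The AP-1 element TGANTCA stood in 1 of the 9 windows, that of Gzmb, and in 7.81% of all windows. The TATA element TATAAA stood in 1 of the 9, that of Ifng, and in 13.6% of all windows. These matches describe letters in a short window and were not tested as sites.

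Mettl3 itself had 2.44 and 3.32 FPKM in KO libraries 1 and 2, against 24.5 and 21.1 FPKM in WT libraries 1 and 2, where FPKM is a gene's read number divided by its length and by the library's size. Estimated depth was 2820000 to 5890000 reads in the KO libraries and 3390000 to 5620000 reads in the WT libraries, with library 2 the shallower in both genotypes. Small RNA genes took 49.4% to 55.7% of the summed FPKM in KO and 37.0% to 43.7% in WT, and were left out as far as their symbols show it. The 9271 genes that averaged 1 FPKM or more over the 4 libraries were tested. Differences are given on the log2(FPKM + 1) scale, so those of low genes are understated. In limma with Benjamini-Hochberg adjustment, 206 genes (2.22%) passed an adjusted p of 0.05, 145 (1.56%) higher and 61 (0.658%) lower in KO. At an unadjusted p under 0.05, 6.23% of the tested genes were higher and 12.2% lower.

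At all 10 genes both KO libraries stood above both WT libraries, an arrangement found at 16.3% of all tested genes. At 8 of the 10 the KO mean was at least 2 times the WT mean, against 2.74% of tested genes. Since the genes were chosen on this contrast, nothing is read from either share. All 10 passed the filter on low values. However, Tbx21, Bhlhe40 and Gzmb had WT means under 1 FPKM and passed it through the KO libraries, so these 3 could only be tested because they were high there. The difference, KO minus WT, ran from 0.36 for Prf1 to 3.07 for Gzmb.

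**Figure D1:**
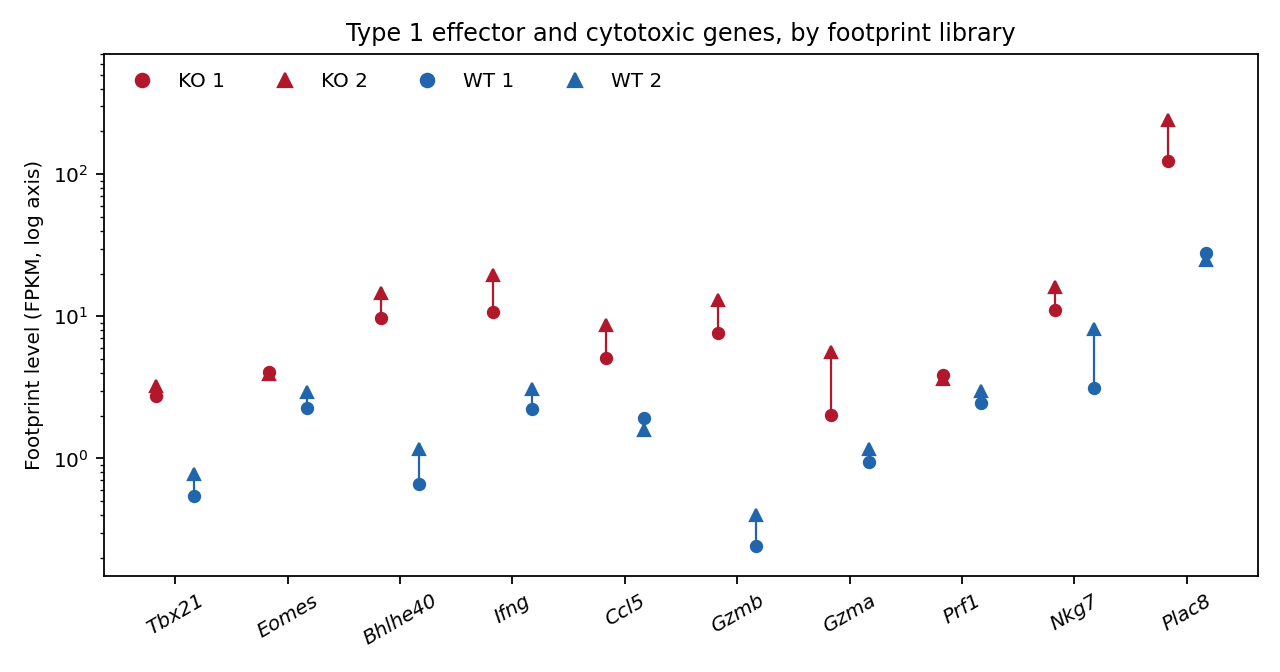
Footprint level (FPKM, log axis) of each gene in KO libraries 1 and 2 (red circle and triangle) and WT libraries 1 and 2 (blue circle and triangle), with a line joining the 2 libraries of a genotype. Gzmb shows the widest gap between genotypes, with 7.69 FPKM as its lower KO value and 0.398 FPKM as its higher WT value, while Prf1 and Eomes show the narrowest.

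Among the transcription factors, Tbx21 (chromosome 11, 97098071 to 97115331, GENCODE M21, GRCm38) had 2.73 and 3.24 FPKM in KO libraries 1 and 2, against 0.544 and 0.777 FPKM in WT libraries 1 and 2. Its mean was 2.99 ± 0.363 FPKM in KO and 0.66 ± 0.165 FPKM in WT (SD, n = 2 each), a ratio of 4.52 and a log2 difference of 1.26. The level was low in both genotypes: about 40 and 23 reads in KO and about 8 and 7 reads in WT, as estimated from FPKM, transcript length and depth.

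Eomes, the second T-box factor (chromosome 9, 118478212 to 118486132), had 4.08 and 3.92 FPKM in KO and 2.27 and 2.95 FPKM in WT. The lower KO value was 1.33 times the higher WT value, so the groups were separate by a narrow margin, and the log2 difference was 0.48. The ratio of Tbx21 to Eomes was 0.669 and 0.826 in the KO libraries, against 0.239 and 0.264 in the WT libraries. Tbx21 therefore stood below Eomes in each of the 4 libraries, and closer to it in KO. An antisense RNA gene, Gm33460, overlaps an exon of Eomes, and strand use is not given in the sources used here, so its reads could not be told from those of Eomes.

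Bhlhe40 encodes a basic helix-loop-helix repressor that helps helper T cells make inflammatory cytokines (chromosome 6, 108660629 to 108666925). It had 9.81 and 14.5 FPKM in KO, against 0.658 and 1.17 FPKM in WT, a ratio of means of 13.3. The lower KO value was 8.42 times the higher WT value. Its exons overlap the antisense gene 0610040F04Rik, with the same limit.

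Of the secreted products, Ifng (chromosome 10, 118441046 to 118445892) had 10.8 and 19.5 FPKM in KO libraries 1 and 2, against 2.22 and 3.10 FPKM in WT libraries 1 and 2. The means were 15.1 ± 6.20 FPKM in KO and 2.66 ± 0.628 FPKM in WT (SD, n = 2 each), and the log2 difference was 2.10. The KO libraries differed from each other by a factor of 1.82, less than the gap of 3.46 times between the lower KO and the higher WT value. A further gene model, Gm49751, shares exon sequence with Ifng on the same strand.

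Ccl5, which encodes a chemokine that draws T cells and monocytes (chromosome 11, 83525778 to 83530518), had 5.10 and 8.67 FPKM in KO and 1.94 and 1.58 FPKM in WT. The ratio of means was 3.91, but the transcript is short and the values rest on about 16 and 13 reads in KO and about 6 and 3 reads in WT.

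Among the granule genes, Gzmb encodes granzyme B, the protease that sets off death of the target cell (chromosome 14, 56258838 to 56262260). It had 7.69 and 13.1 FPKM in KO libraries 1 and 2, against 0.244 and 0.398 FPKM in WT libraries 1 and 2, and its log2 difference of 3.07 was exceeded by 1 of the 9271 tested genes, the microRNA precursor mmu-mir-192, which the removal by symbol missed and which was above 0 in KO library 1 alone. The KO values correspond to about 65 and 53 reads and each WT value to about 2 reads. The ratio of means, 32.4, is therefore imprecise in its denominator. Gzmb lies 3.95 Mb from Mettl3 on the same chromosome, and linked differences between the mice cannot be told apart from the genotype.

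Gzma encodes granzyme A, a protease of other specificity (chromosome 13, 113093825 to 113100981). It had 2.03 and 5.63 FPKM in KO and 0.944 and 1.16 FPKM in WT. Its KO libraries differed from each other by a factor of 2.77, more than the gap of 1.76 times that parted the genotypes. The ratio of Gzmb to Gzma was 3.79 and 2.32 in KO, against 0.258 and 0.344 in WT. The Gzma values rest on about 11 and 14 reads in KO and about 5 and 3 reads in WT, too few to order the granzymes in WT.

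Prf1, the perforin gene (chromosome 10, 61297833 to 61304680), had 3.88 and 3.60 FPKM in KO and 2.44 and 2.96 FPKM in WT. Its log2 difference, 0.36, was the smallest of the 10, and 879 tested genes had a larger one. Perforin and granzyme B act as a pair in killing, and the ratio of Gzmb to Prf1 was 1.98 and 3.63 in KO, against 0.100 and 0.135 in WT. Nkg7, which encodes a granule membrane protein needed for efficient release (chromosome 7, 43437073 to 43438249), had 11 and 16.1 FPKM in KO and 3.13 and 8.11 FPKM in WT. Its WT libraries differed by a factor of 2.59, more than the ratio of means between genotypes, 2.41.

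Plac8 encodes a small cysteine-rich protein found in several leukocyte types (chromosome 5, 100553725 to 100572245). It had 123 and 239 FPKM in KO, against 27.8 and 24.8 FPKM in WT. With about 825 to 886 reads in KO and 103 to 191 reads in WT it is the best measured of the 10 genes, and its log2 difference was 2.66. It was the most abundant of the 10 in each library, and supplied most of their summed level, which was 180.0 and 327 FPKM in KO against 42.2 and 47.0 FPKM in WT.

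**Figure D2:**
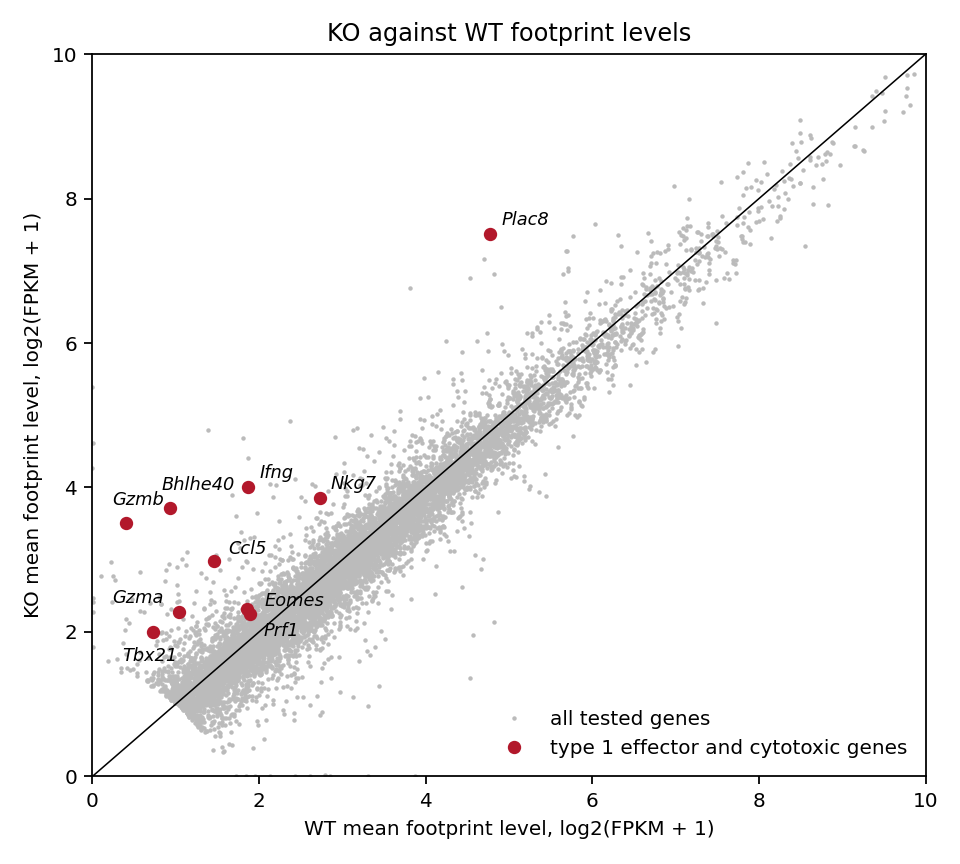
Mean footprint level in KO (y axis) against WT (x axis), both as log2 of the mean FPKM plus 1, for all tested genes (grey) and the 10 genes (red). The line marks equal levels, and 53 abundant tested genes lie beyond the axes, which end at 10. Gzmb and Bhlhe40 sit at the low end of WT levels and in the middle range of KO levels, Plac8 is high in both genotypes, and Prf1 and Eomes lie near the cloud of other genes.

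By mean level in KO, the order was Plac8 (181 FPKM), Ifng (15.1), Nkg7 (13.5), Bhlhe40 (12.2), Gzmb (10.4), Ccl5 (6.89), Eomes (4.0), Gzma (3.83), Prf1 (3.74) and Tbx21 (2.99 FPKM). From Ifng down to Ccl5, each gene's 2 KO values overlapped those of the next, as did those of Eomes, Gzma and Prf1. In WT the order was Plac8 (26.3 FPKM), Nkg7 (5.62), Prf1 (2.70), Ifng (2.66), Eomes (2.61), Ccl5 (1.76), Gzma (1.05), Bhlhe40 (0.912), Tbx21 (0.66) and Gzmb (0.321 FPKM). There the values of Prf1, Ifng and Eomes overlapped, as did those of Gzma with Bhlhe40 and of Bhlhe40 with Tbx21. By mean, Gzmb was the lowest of the 10 in WT, while in KO it had 4 of them above it. Its WT level rests on about 2 reads per library, too few to place it below Gzma. Its KO values overlapped those of Bhlhe40 and Ccl5, so neither rank is firm. Against the median tested gene, 6.50 FPKM in KO and 6.94 FPKM in WT, 4 of the 10 genes were lower in KO and 9 were lower in WT, all but Plac8. In KO, 1.75% of tested genes stood above Plac8 and 25.4% above Ifng. In WT those shares were 15% and 79.7%.

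The replicates also differed. KO library 2 exceeded KO library 1 at 8 of the 10 genes, all but Eomes and Prf1, with a median ratio of 1.59, while it did so at 65.1% of tested genes with a median ratio of 1.08. WT library 2 exceeded WT library 1 at 8 of the 10, with a median ratio of 1.35, against 57.5% and 1.04 for all tested genes. Without KO library 2, 6 of the 10 genes had a KO mean of at least 2 times the WT mean, and the median log2 difference was 1.16. Without KO library 1 they were 8, with a median of 1.75, and with all libraries 8, with a median of 1.37 beside -0.10 for all tested genes.

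The mRNAs were short, with a median transcript length of 1330 bases beside 2864 bases for tested coding genes. GGACT, the sequence in which m6A is most often placed, occurred at a median of 1.76 per kilobase in the 10 transcripts, and at 1.03 per kilobase in tested coding genes, whose quartiles were 0.616 and 1.52. Ifng had 0 copies, as did 9.35% of tested coding genes, and Prf1 had the most, 7. Whether any copy carried the mark was not measured. ATTTA, the pentamer of AU-rich decay elements, stood in the 3′ untranslated region of 4 of the 10, Ifng (6 copies), Plac8 (2), Tbx21 (1) and Eomes (1), and in that of 65.0% of tested coding genes.

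Genes around the type 1 programme were then examined in lists that leave out the 10 genes. Of 18 tested receptors and signal transducers of type 1 cytokines, 2 rose and 0 fell, beside 1.56% and 0.658% of all tested genes, with a median log2 difference of 0.16. At an unadjusted p under 0.05, 6 were higher and 2 lower, beside 6.23% and 12.2% of all tested genes, which is also the background of such counts in the lists that follow. Il2rb, a receptor chain for interleukins 2 and 15 and a known target of T-bet and Eomes, rose to 11.1 and 16.0 FPKM in KO, against 3.39 and 3.56 FPKM in WT (log2 difference 1.69, SE 0.20, limma adjusted p = 0.0125). Among genes named after their values were seen, Il12rb1, a chain of the interleukin 12 receptor, had 2.06 and 3.45 FPKM in KO and 0.897 and 0.782 FPKM in WT. The other chain, Il12rb2, was low and overlapped between genotypes, with 0.508 and 1.39 FPKM in KO and 0.846 and 0.476 FPKM in WT. Stat4, which carries the interleukin 12 signal, had 23.3 and 28.8 FPKM in KO and 22.2 and 25.7 FPKM in WT, with overlapping groups. With 1 library left out, 1 gene of this list passed without KO library 1 and 0 in the other such fits.

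Among 12 tested transcription factors of effector cells, Irf1 and Nfil3 rose and 0 fell (median 0.19; 3 higher and 1 lower at an unadjusted p under 0.05). Irf1, itself induced by interferon gamma, had 184 and 183 FPKM in KO and 105 and 97.2 FPKM in WT (limma adjusted p = 0.0146). Nfil3, a basic leucine zipper factor, had 8.53 and 9.40 FPKM in KO and 3.48 and 2.19 FPKM in WT (limma adjusted p = 0.0223). Whichever of the 4 libraries was removed, 0 genes of this list passed. Of 8 tested regulators of the other helper lineages, 0 passed in limma (median 0.16; 2 higher and 0 lower at an unadjusted p under 0.05). The most abundant, Tcf7, had 98.1 and 103 FPKM in KO and 76.2 and 131 FPKM in WT, and Stat6, the mediator of interleukin 4 signals, had 25.7 and 26.1 FPKM in KO and 28.8 and 30.4 FPKM in WT. Both KO libraries lay above both WT libraries at 3 of the 8, Gata3, Maf and Ikzf2, beside 16.3% of all tested genes. They lay below at 2, Foxp3 and Stat6, beside 34.6%.

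The rest of the granule machinery gave 1 call among 19 tested genes (median 0.06; 3 higher and 2 lower at an unadjusted p under 0.05, beside 6.23% and 12.2% of all tested genes). Srgn, which encodes the proteoglycan core that packs granule proteins, rose to 341 and 375 FPKM in KO, against 219 and 246 FPKM in WT (0.62, SE 0.12, limma adjusted p = 0.0457), and its call was lost in each fit without 1 library. Stxbp2, needed for granule fusion, had 18.9 and 22.5 FPKM in KO and 21.5 and 26.9 FPKM in WT. Named after their values were seen, the granzyme genes Gzmd, Gzme, Gzmf, Gzmg and Gzmn were listed at 0 in all 4 libraries, and Gzmc had 1.04 and 2.17 FPKM in KO and 0.871 and 0.711 FPKM in WT. Crtam and Fasl, also named after their values were seen, stood the other way. Crtam had 0.528 and 0.732 FPKM in KO and 3.41 and 2.56 FPKM in WT. Fasl had 5.38 and 3.32 FPKM in KO and 9.03 and 5.94 FPKM in WT. Both KO libraries lay above both WT libraries at 7 of the 19 tested genes, beside 16.3% of all tested genes. They lay below at 5, beside 34.6%.

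Among 11 tested cytokine and chemokine genes, Lta, which encodes lymphotoxin alpha, rose to 11.2 and 10.5 FPKM in KO, against 5.54 and 5.30 FPKM in WT (0.89, SE 0.16, limma adjusted p = 0.0401). It was the 1 call of this list (median 0.12; 3 higher and 2 lower at an unadjusted p under 0.05), and was lost in each fit without 1 library. Ltb, its partner in the membrane-bound form, had 332 and 294 FPKM in KO and 208 and 219 FPKM in WT (limma adjusted p = 0.0614). Mif stood the other way, with 129 and 117 FPKM in KO and 190 and 146 FPKM in WT (limma adjusted p = 0.19). Both KO libraries lay above both WT libraries at 4 of the 11, beside 16.3% of all tested genes. They lay below at 2, beside 34.6%. Of the 24 cytokine and chemokine genes listed, 13 had a mean under 1 FPKM.

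Most of the listed genes known to respond to interferon gamma were higher in KO: 18 of 27 tested rose and 0 fell, with a median of 0.95, against 1.56% and 0.658% of all tested genes. Besides Irf1, these included GTPase genes of the guanylate-binding and immunity-related families, Socs1, Tap1, Tap2, H2-K1 and Cd274. Irgm1, of the second family, rose to 39.6 and 50.0 FPKM in KO, against 14.8 and 14.8 FPKM in WT (1.52, SE 0.15, limma adjusted p = 0.00692). Igtp, Gbp2 and Iigp1, the other 3 named by the rule, had log2 differences of 2.14, 2.35 and 2.95. Ciita, too low to be tested and named after its values were seen, stood the other way. It had 0.381 and 0.683 FPKM in KO and 1.27 and 0.972 FPKM in WT. The GTPase families and H2-K1 have close copies, and how reads shared between copies were assigned is not known, so the share of any 1 of them is uncertain. This response was known from earlier results of these data, and many of its genes also answer to type I interferon. The count was 6 without KO library 1, 0 without KO library 2, 4 without WT library 1 and 3 without WT library 2.

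Genes of memory and activated T cells gave 7 calls among 22 tested, all higher (median 0.60), beside 1.56% of all tested genes called higher. The 7 were Cxcr3, Cxcr6, Ccr2, Ly6a, S100a4, Itgb1 and Icos. Ccr2 had 4.07 and 8.39 FPKM in KO and 0.806 and 0.886 FPKM in WT. It could only be tested because it was high in KO. Cxcr3, a chemokine receptor of type 1 cells and a known target of T-bet, rose to 11 and 19.9 FPKM in KO, against 2.95 and 4.26 FPKM in WT (1.79, SE 0.28, limma adjusted p = 0.0261). Cxcr6 rose to 25.8 and 32.9 FPKM in KO, against 4.63 and 3.70 FPKM in WT (2.55, SE 0.18, limma adjusted p = 0.00208). Itgb1, the integrin beta 1 chain, rose to 24.8 and 34.8 FPKM in KO, against 12.8 and 11 FPKM in WT, and Ly6a rose to 175 and 179 FPKM in KO, against 57.4 and 49.5 FPKM in WT. Cd44, the classical marker of memory cells, named after its values were seen, had 2.47 and 4.61 FPKM in KO and 3.10 and 3.04 FPKM in WT, with overlapping groups. The count was 2 without KO library 1, 0 without KO library 2, 2 without WT library 1 and 3 without WT library 2.

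Of 18 naive T cell genes, Dapl1 fell to 59.6 and 45.3 FPKM in KO, against 92.2 and 106 FPKM in WT (-0.91, SE 0.16, limma adjusted p = 0.0401), and 0 rose (2 higher and 5 lower at an unadjusted p under 0.05). The call of Dapl1 was lost when libraries were centred on their medians, and in each fit without 1 library. Ets1, a transcription factor of resting T cells, had 233 and 241 FPKM in KO and 277 and 323 FPKM in WT.

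**Figure D3:**
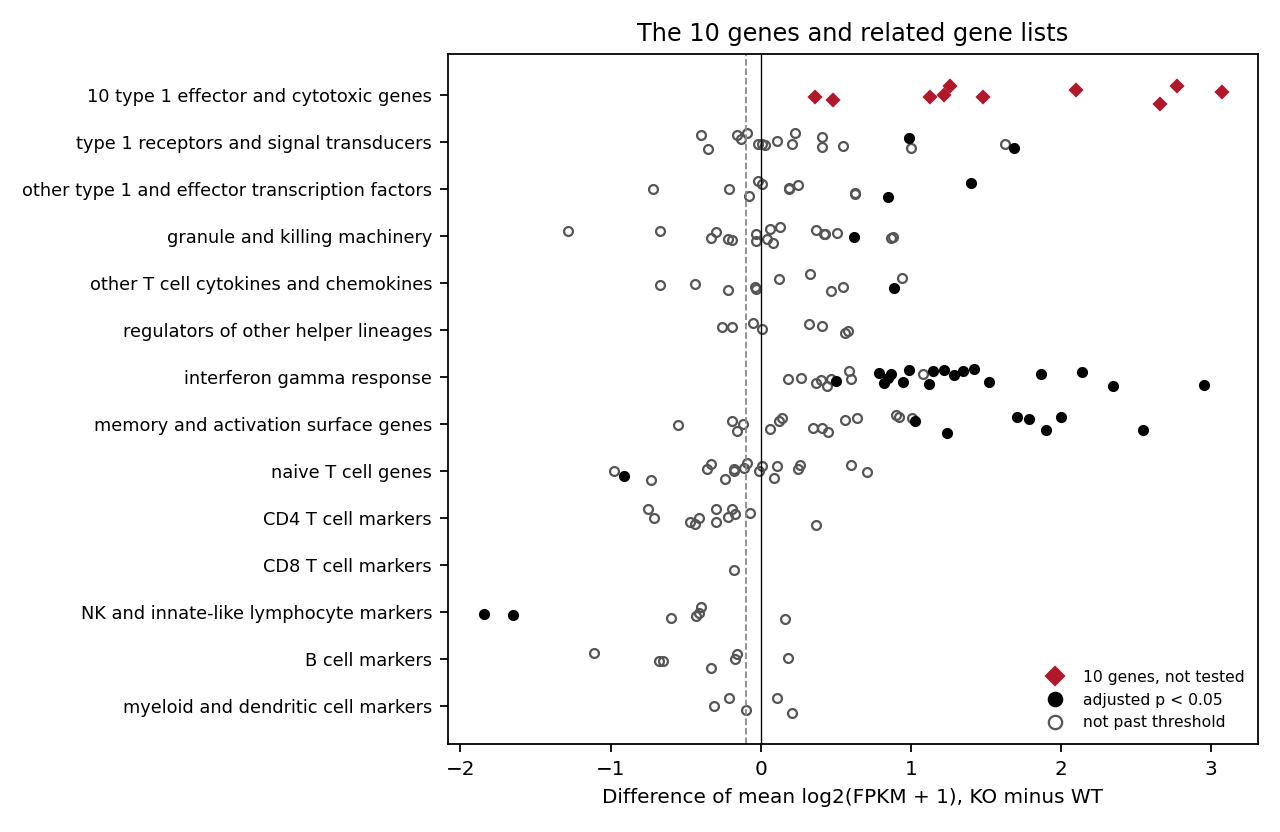
Difference of mean log2(FPKM + 1), KO minus WT, for the 10 genes (red diamonds, not tested) and for each tested gene of the related lists (filled, limma adjusted p under 0.05; open, not past the threshold). The solid line marks 0 and the dashed line the median of all tested genes, -0.10. The interferon gamma list lies to the right, with 18 filled points, while the NK list has its 2 filled points on the left.

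Markers of the cell types that a CD4+ T cell isolate could contain were read beside these values. In bulk libraries, fewer cells of a type and less RNA per cell cannot be told apart. The CD4 T cell markers were present in all 4 libraries: Cd4 had 82.0 and 101 FPKM in KO and 94.6 and 97.1 FPKM in WT, and Cd3e had 15 and 19.0 FPKM in KO and 18.9 and 23.3 FPKM in WT. Of the 12 CD4 T cell markers 0 passed in limma (1 higher and 4 lower at an unadjusted p under 0.05; median -0.30), and their most abundant genes, Lck and Trat1, had log2 differences of -0.22 and 0.37. At 9 of the 12 both KO libraries lay below both WT libraries, beside 34.6% of all tested genes. Only at Trat1 did both lie above, beside 16.3% of all tested genes. The CD8 markers were low, with Cd8a at 0.369 and 0.548 FPKM in KO and 0.551 and 0.450 FPKM in WT, and Cd8b1 at 1.10 and 0.734 FPKM in KO and 0.576 and 1.96 FPKM in WT. Of these, Cd8b1 alone was tested and did not pass.

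Of the 21 NK and innate-like markers, 14 averaged under 1 FPKM. The summed level of the 21 was 10.7 and 13.1 FPKM in KO, against 26.2 and 33.0 FPKM in WT. Ncr1, the defining receptor gene of NK cells, was listed at 0 in all 4 libraries, and Klrb1c, which encodes NK1.1, had 0.252 and 0.459 FPKM in KO and 1.06 and 0.862 FPKM in WT. Of 7 tested, 2 fell and 0 rose (median -0.43; 0 higher and 3 lower at an unadjusted p under 0.05). Klrd1, which encodes CD94, fell to 2.53 and 1.91 FPKM in KO, against 8.65 and 9.42 FPKM in WT (-1.65, SE 0.19, limma adjusted p = 0.0100). Tyrobp, the signalling adaptor DAP12, fell to 0.838 and 0.871 FPKM in KO, against 4.38 and 7.16 FPKM in WT (-1.84, SE 0.25, limma adjusted p = 0.0168). However, the KO mean of Tyrobp was under the filter of 1 FPKM, so it could only be tested because it was high in WT. At 5 of the 7 both KO libraries lay below both WT libraries, as at 34.6% of all tested genes. Itga2, named after its values were seen, stood the other way, with 0.228 and 0.633 FPKM in KO and 0 and 0.130 FPKM in WT. The fit without WT library 1 gave 1 call and the other 3 such fits 0.

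Of the B cell markers, 0 of 7 tested passed (0 higher and 1 lower at an unadjusted p under 0.05), with summed levels of 10.3 and 25.1 FPKM in KO and 34.2 and 21 FPKM in WT. Cd79b and Ms4a1, the most abundant, had means of 4.90 and 2.77 FPKM in KO and 10.5 and 4.40 FPKM in WT. Of the myeloid and dendritic cell markers, 0 of 5 tested passed and 0 had an unadjusted p under 0.05. Their summed levels were 21.5 and 30.3 FPKM in KO and 34.3 and 26.8 FPKM in WT, with Lyz2 at 10.6 and 15.8 FPKM in KO and 18.0 and 14.8 FPKM in WT, and Siglech at means of 4.03 FPKM in KO and 4.38 FPKM in WT. The summed B cell and myeloid markers, like the sum of the 10 genes, were higher in KO library 2 than in KO library 1. Between the WT libraries both marker sums were higher in library 1, while the sum of the 10 genes was higher in library 2. Plac8, which supplied most of that sum, was lower in WT library 2. The NK and CD4 marker sums were higher in library 2 in both genotypes, and the CD8 sum in WT alone. The part of any of these cell types in the levels of the 10 genes was not tested.

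**Figure D4:**
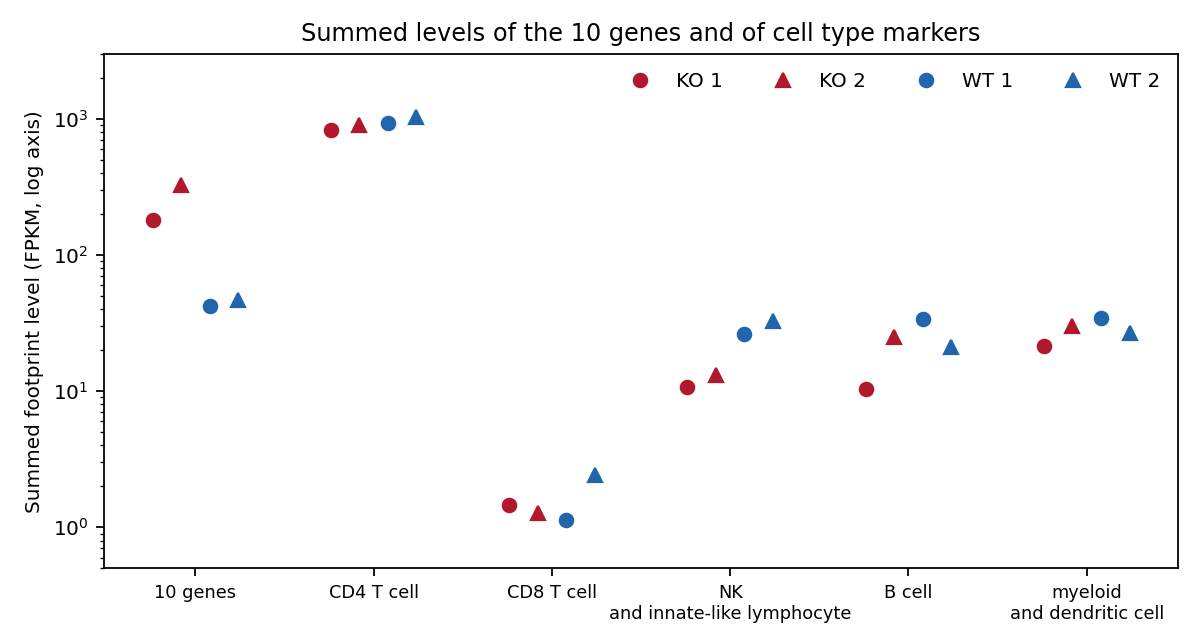
Summed footprint level (FPKM, log axis) of the 10 genes and of each marker list in KO libraries 1 and 2 (red) and WT libraries 1 and 2 (blue). The sum of the 10 genes is higher in both KO libraries than in either WT library. The NK and CD4 sums are lower in both KO libraries, and the CD8, B cell and myeloid sums overlap between genotypes.

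The 5 other tested genes whose pattern over the 4 libraries lay nearest to the median pattern of the 10, by Euclidean distance between log2(FPKM + 1) values centred on each gene's mean, were Tmem176a (distance 0.126), H2-DMa (0.184), Gm5108 (0.186), Map3k8 (0.200) and Il2rb (0.205). They were selected for being high in KO, so no test is given of this likeness or of the genes it adds. Il2rb also belongs to the receptor list, where its limma result stands. Tmem176a had 3.01 and 4.79 FPKM in KO and 0.370 and 0.605 FPKM in WT. H2-DMa, which loads peptides on class II molecules, had 20.2 and 29.7 FPKM in KO and 5.70 and 7.35 FPKM in WT. Map3k8, a kinase of the ERK pathway, had 6.76 and 10.1 FPKM in KO and 2.22 and 2.49 FPKM in WT, and Gm5108 had means of 11.5 FPKM in KO and 2.93 FPKM in WT.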

How the data were processed

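Ribosome footprints and input RNA were sequenced from KO and WT naive CD4+ T cells, 8 libraries in 4 groups of 2, grouped by title. The table the authors deposited holds FPKM of the 4 footprint libraries, per the file headers, 1 column each. TopHat, Cuffdiff and mm10 (GRCm38) were used, per the submitters' processing notes. The sources used here do not give the annotation, strand, handling of shared reads or scaling across libraries. Per the labels' protocols, libraries had 9 PCR cycles.

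The 10 genes, the 13 related lists and the tests were chosen with earlier results of these data known. The planned test of input RNA and translational efficiency was not run, since the table holds footprints only. Of the genes, 1215 small RNA genes were left out by symbol, and those with a mean of at least 1 FPKM kept. Genotypes were compared on log2(FPKM + 1) with limma 3.58.1 in R 4.3.3 (variance trend, two-sided, 2 residual and 5.2 prior degrees of freedom, Benjamini-Hochberg over all tested genes, threshold 0.05). The p-values rest on the spread of duplicates that may be technical. Depth was estimated from the most frequent low value of FPKM times length in 4049 genes with 1 transcript, and read numbers are approximate since gene lengths behind the authors' FPKM are not given. Transcript features came from GENCODE M21, from the transcript with the longest coding sequence. The fit was tested on simulated data. Named were the 10 genes, Mettl3, up to 4 called genes per list by p (with the 2 of highest mean where fewer than 2 were called, and in marker lists always), 8 defining markers and the 5 genes of nearest pattern. For 3 of these, values are not reported here. The alternatives varied the pseudocount, filter, scaling, small RNA genes, variance trend, replicate block and each library in turn (the lone library left in a genotype was taken to vary as much as the other pair). Protein-coding genes only and array weights were added after the data were seen. Tables and plots used Python 3.11.15, pandas 2.3.3 and matplotlib 3.10.9.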

Additional observations from a re-analysis of the deposited data

How the results depend on the processing

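Testing all genes above 0, limma called 0 in either direction, in the related lists too, although 2061 of 15456 had an unadjusted p under 0.05. With small RNA genes kept, 56 genes were higher and 27 lower (13 and 1 in the lists, of them 10 in the interferon gamma list, 2 in the memory list and 1 lower NK marker). Without a variance trend they were 47 and 21 (7 higher in the lists, 4 interferon gamma and 2 memory genes). With a filter at 5 FPKM, 101 were lower, 5 of them in the lists and 1 an NK marker, and 5 of the 10 described genes were left, all 5 higher in KO and at least 2 times so. The cause was not tested. Fits without 1 library, which have fewer degrees of freedom, gave 1 to 37 higher and 0 to 21 lower genes, and in the lists 0 to 9 higher and 0 to 1 lower, against 29 and 3 with all libraries. The interferon gamma list gave 0 to 6, the memory list 0 to 3 and the NK list 0 to 1. Of 17 named calls in the lists, 9 held in none of these fits and 5 in at least 3. The median difference of the 10 genes was 1.95 with a pseudocount of 0.1 and 0.81 with one of 5, and 1.16 to 1.75 without 1 library. Centring on library medians moved the median of all genes to -0.0084 and gave 80.3% higher calls, against 70.4%. The same replicate numbers do not establish pairing (correlation of deviations -0.09), and the replicate block gave 121 higher and 49 lower genes, with 23 and 3 in the lists. Under it Srgn, Lta and Dapl1 had adjusted p of 0.0567, 0.0595 and 0.0609 in limma. No direction of a named call reversed. The WT values of Gzmb, Ccl5, Gzma, Tbx21 and Bhlhe40 rest on about 12 reads or fewer per library, which limits their ratios.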
